A study of Bos taurus with 18 samples.

Results

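The distal window of bovine chromosome 29 (BTA29) examined here spans chr29:48500001-50400000 of the UMD 3.1 genome, 1900000 bp in all, and was described in sperm of 18 Holstein bulls from whole-genome bisulfite sequencing. The window was cut into 950 tiles of 2000 bp, and a tile was kept when at least 9 of the 18 bulls listed 1 or more CpG positions in it. The rule kept 830 tiles, against 1186985 tiles that pass it in the whole series and 23788 on the rest of chr29. Of the tiles left out, 119 were listed in 1 to 8 bulls and 1 held no listed position. The rule used how often a tile was listed and not its methylation. A total of 24 tiles sat on its edge with exactly 9 bulls, 29 fell just outside with 8, and 232 were listed in all 18.

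The bulls were adult, fertile and age-matched, with 1 semen sample each and no treatment, and the labels place them in high or low groups for 5 traits. For GL, SCE, BDE and CCR, named below, the study's measure of a trait was predicted transmitting ability, the merit a sire is expected to pass to its offspring, and for SCR the measure is not given in the sources used here. For gestation length (GL) the high bulls were H03, H09, L03 and L05 and the low bulls H02, H05, L01 and L07. For sire calving ease (SCE) H03, H07 and L02 were high and H01, H06 and L09 low. For body depth (BDE) H02, L03 and L08 were high and H05, H09 and L02 low. For cow conception rate (CCR) H08, H09 and L06 were high and H06, L08 and L09 low. For sire conception rate (SCR) H01, H02 and H03 were high and L01, L02 and L03 low. The letter in a bull's name does not give its group for the other traits. The labels give no trait group for H04 and L04, which enter only the ranges over all bulls. The comparisons share bulls, so their calls are not independent of each other.

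Distal BTA29 is known for the cluster of imprinted genes around IGF2. An imprinted gene is expressed from the copy of a single parent, and the choice is carried by methylation laid down in the germ line. IGF2, a fetal growth factor, is expressed from the paternal copy, and H19, a long non-coding RNA beside it, from the maternal copy. The control region between them is methylated in sperm of the mammals in which it has been studied, while the neighbouring control region within KCNQ1 takes its methylation from the oocyte. Sperm DNA is otherwise methylated over most of the genome, with gaps at CpG-rich promoters. In the RefSeq annotation of a later assembly, ARS-UCD2.0, the named genes run in the order PHLDA2, CDKN1C, KCNQ1, ASCL2, TH, INS, IGF2 and H19, with others between them. That assembly was not the one the reads were mapped to and no UMD 3.1 annotation was used, so no tile below is assigned to a gene, exon or promoter, and no control region was located.

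A bull listed between 1203 (H01) and 43793 (H08) positions in the window, with a median of 9032.5, and between 340 and 829 of the 830 tiles. Each position had at least 10 reads, and the strands of a CpG are separate positions. Together the bulls listed 61566 distinct positions, of which 22578 (36.7%) occurred in a single bull, 3320 in 9 or more, and 30 in all 18. So the same tile was often read at different CpGs in different bulls. For 6 bulls the number of reads per position is known (mean 10.99 to 11.81 in the window). For the other 12 it is unknown.

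The window was more methylated than its surroundings. The level of a tile in a bull is the mean percent over its listed positions, and the level of the tile is the median over bulls. The median tile level was 95.5% in the window, 92.2% on the rest of chr29 and 93.3% in the whole genome. High tiles, over 80%, made up 751 of the 830 (90.5%), against 77.6% on the rest of chr29 and 82.7% in the genome. Intermediate tiles, from 20% to 80%, numbered 64 (7.71%), against 19.2% and 14.9%. Low tiles, under 20%, numbered 15 (1.81%), against 3.19% and 2.38%. These shares are descriptions with no test. Single bulls were compared with their own genome only. The mean over a bull's positions in the window ran from 88.8% to 92.0% and was above the mean over its whole genome in 18 of 18 bulls, by 5.82 to 14.98 percentage points with a median of 8.65. The genome mean itself ran from 76.8% in H01, which had the widest gap, to 85.0% in H06, which had the narrowest. Genome-wide H01 listed 2858992 positions, the fewest of all bulls, and H06 13499454. The part of such differences in listing in the gaps was not tested.

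**Figure D1:**
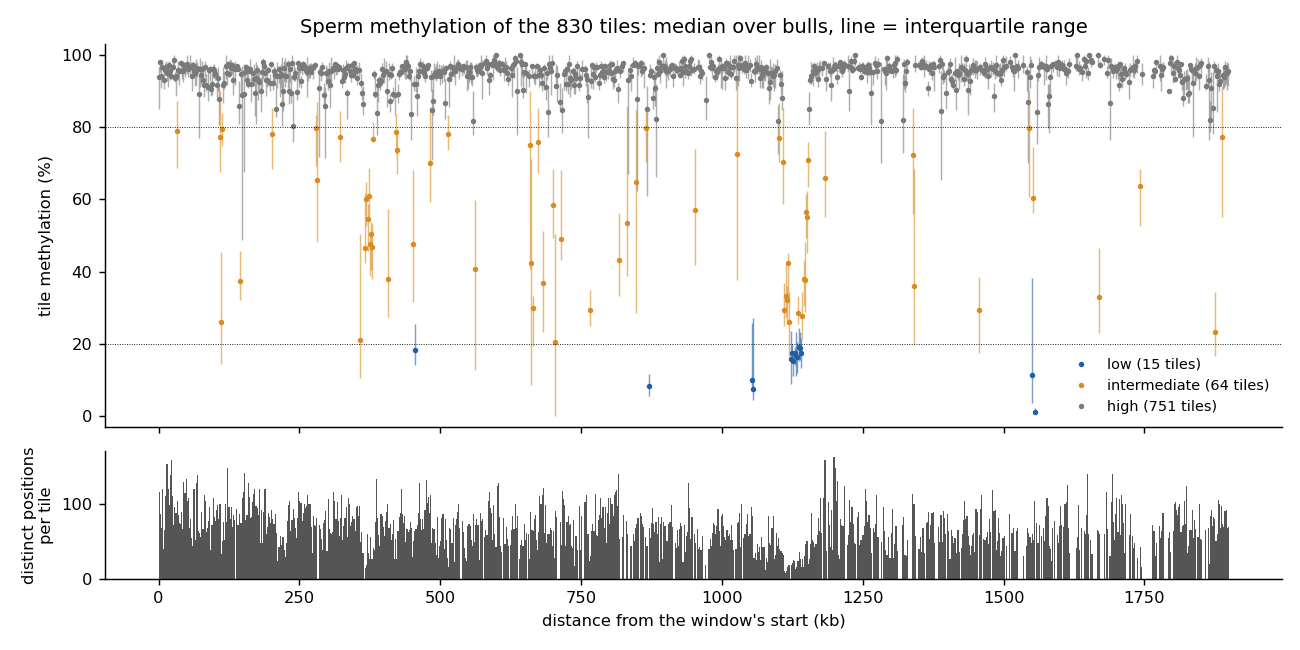
Upper panel: methylation (%) of each of the 830 tiles against distance from the start of the window (kb), with the median over bulls as a point and the interquartile range as a line, and dotted lines at 20% and 80%. Lower panel: distinct listed positions per tile. The 751 high tiles (grey) form a band broken by 15 low tiles (blue) and 64 intermediate tiles (orange), and the longest break lies where few positions were listed per tile.

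**Figure D2:**
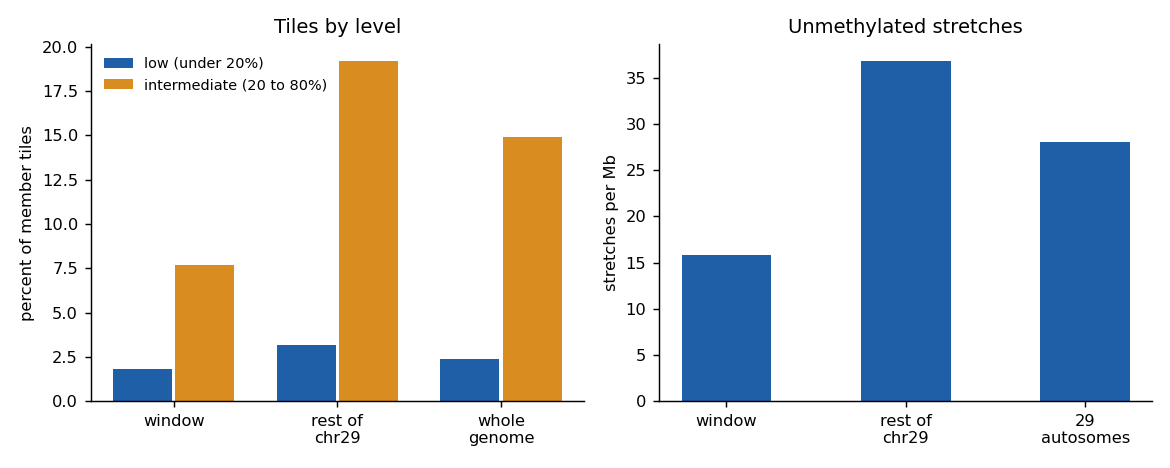
Left: percent of tiles that were low (blue) or intermediate (orange) in the window, on the rest of chr29 and in the whole genome. Right: unmethylated stretches per Mb in the window, on the rest of chr29 and over the 29 autosomes; the window has the smallest value in every set of bars.

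Bulls also varied less within the window. The interquartile range of a tile's level over bulls had a median of 4.15 points, against 6.50 on the rest of chr29 and 6.18 in the genome. The window also had more listings per tile (a median of 211.5 over bulls, against 155 and 132) and, as given above, more high tiles, and their part in the narrower range was not tested. Within the window it was 3.87 points in high tiles, 8.64 in low tiles and 17.8 in intermediate tiles.

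The 15 low tiles formed 3 runs of adjacent tiles and 4 isolated tiles. The longest run, chr29:49622001-49634000, held 6 tiles with levels from 15.4% to 17.5%. Its mean in a bull ranged from 10% (L02, 3 positions) to 23.5% (H07, 23 positions), with a median of 16.6%. The second, chr29:49636001-49642000, held 3 tiles from 17.5% to 19.2%, and its mean ranged from 14.4% (L09, 9 positions) to 33.8% (L02, 3 positions). Both lie inside the broad region described below and were reduced, not empty, of methylation: the 6 bulls with known reads gave 142 methylated of 913 reads in the first (15.6%, 95% Wilson interval 13.3 to 18.05) and 183 of 966 in the second (18.9%, 16.6 to 21.5). Intervals cover counting error only.

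The third run, chr29:49552001-49556000, held tiles at 9.93% and 7.60% and was of a different kind. Its 179 distinct positions were dense, and 100 of those listed in 3 or more bulls formed an unbroken unmethylated stretch at chr29:49552713-49554831. The mean of the position medians there was 1.01%, and a bull's mean inside the stretch was between 0% and 7.78% in the 17 bulls that listed it. The positions within 1 kb on either side had a mean of 83.5%. The mean over the whole 4 kb ran from 0.909% (L03) to 30.8% (H04).

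The isolated low tiles with the most positions were chr29:50054001-50056000, chr29:49370001-49372000 and chr29:48954001-48956000. The first had a level of 1.19%, with bulls from 0% to 6.06% among the 15 that listed it and 16 methylated of 1037 reads in the 6 bulls with known reads (1.54%, 0.952 to 2.49). It was the least methylated tile of the window. The second stood at 8.51% and was listed in all 18 bulls, from 1.54% (L05) to 24.7% (L08). The third stood at 18.5%, from 7.42% (H06) to 100% in H01, which listed a single position there. Its stretch of 26 unmethylated positions, chr29:48954801-48955823, had a mean of 0.720%. Of the tile's positions listed in 3 or more bulls, 28 were under 20%, 7 from 20% to 80% and 4 higher. The fourth isolated tile, chr29:50050001-50052000, was listed in 10 bulls, at 11.4%.

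Single positions showed where methylation was missing within tiles. A stretch was defined as 5 or more consecutive positions, each listed in 3 or more bulls, with medians under 20% and gaps under 1000 bp. This definition was set after the levels were seen. The window held 30 stretches, or 15.8 per Mb, against 36.8 per Mb on the rest of chr29 and 28.01 over the 29 autosomes. Per 10000 positions listed in 3 or more bulls the values were 11.3, 29.7 and 25.6. Among these positions 2.84% were under 20% in the window, 8.02% on the rest of chr29 and 6.999% over the autosomes. So unmethylated CpGs were sparse in the window also when the number of listed positions was taken into account. A total of 17 stretches began in intermediate tiles, 10 in low tiles, 2 in high tiles and 1 in a tile outside the 830, so most began in a tile whose level was over 20%.

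The 4 stretches given here, picked after the values were seen, had sharp edges. The stretch at chr29:49839322-49840855 (1534 bp, 42 positions) had a mean of 0.810% inside and 84.3% within 1 kb outside. The stretch at chr29:50053749-50055230 (1482 bp, 46 positions) had 2.10% inside and 77.5% outside. The stretch at chr29:48906149-48906721 (573 bp, 24 positions) had 0.769% inside and 76.7% outside, and no bull's mean inside it was above 3.57% among the 13 that listed it. The stretch at chr29:49201892-49202085 had a median of 0% at all 17 positions, with 79.4% outside. A bull's mean inside these 4 stretches did not pass 27.3%, the value of single bulls in the first and second. Others did not: the 1212-bp stretch at chr29:49623295-49624506, in the broad region described below, had 15.1% inside and 20.3% outside. Between the stretches, the longest interval without one ran from chr29:50055231 to 50374694, 319464 bp. The listing rule kept 109 of its tiles, and 107 of these were high. The other tiles of the interval were listed in too few bulls to be kept. Whether sparse listing hid a stretch there was not tested.

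**Figure D3:**
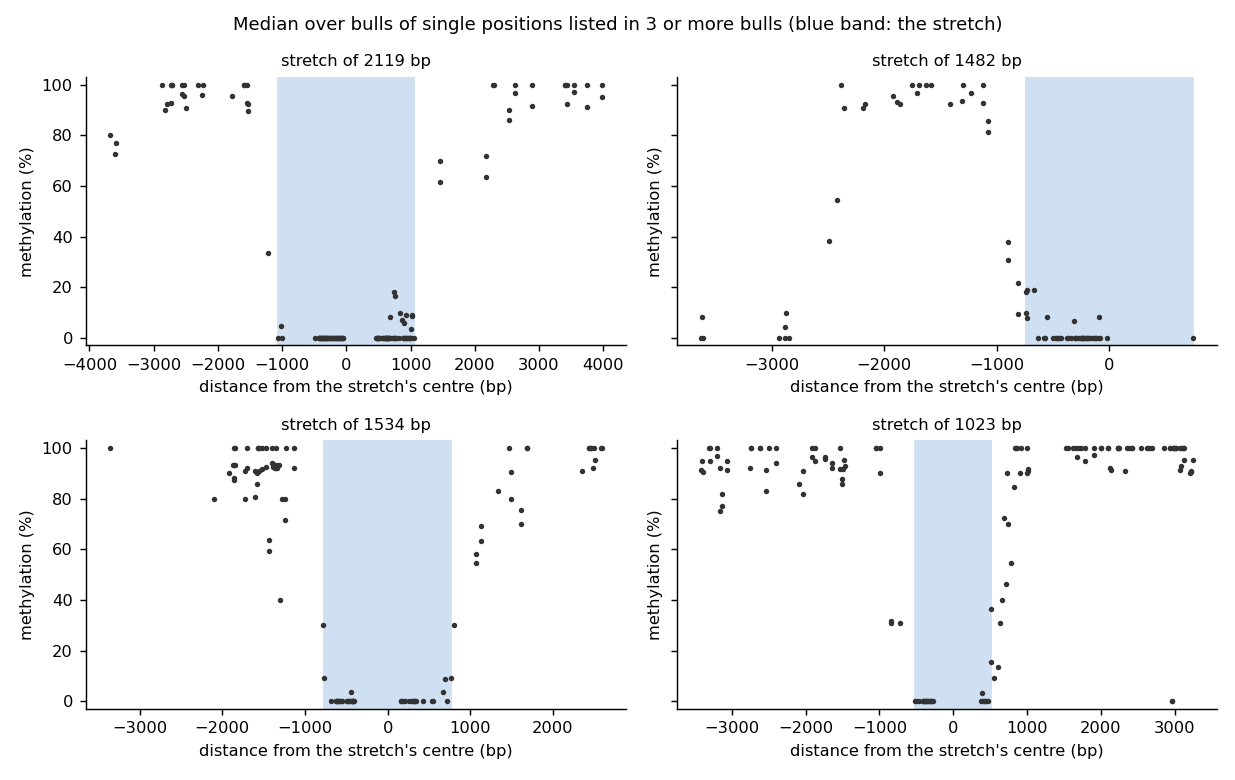
Methylation (%) of single positions listed in 3 or more bulls, as the median over bulls, against distance (bp) from the centre of 4 unmethylated stretches of 2119, 1482, 1534 and 1023 bp, each marked by a blue band. Inside the bands the points lie under 20% by the definition of a stretch, and outside most lie over 80% within about 1 kb, with few points between.

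A broad region of partial methylation had a different form. Joining runs of tiles under 80% across tiles outside the 830, a step also added after the levels were seen, gave chr29:49608001-49654000, 46000 bp with 22 tiles whose levels ran from 15.4% to 70.9%. The mean over a bull's positions in it was 27.7% in L06, 36.1% in the median bull and 51.2% in L02. The 10 tiles before it had a median over bulls of 89.1% and the 10 after it 93.8%, and no bull's value in the region overlapped any bull's value in either flank. The reads of the 6 bulls gave 1848 methylated of 5050 (36.6%, Wilson 35.3 to 37.9). The levels fell from 70.2% in its first tile to 29.4% in the next, were under 20% in 9 of the 10 tiles of chr29:49622001-49642000, and climbed again to 38.1%, 56.4% and 70.9% in tiles at chr29:49644001-49646000, chr29:49648001-49650000 and chr29:49652001-49654000. It was poor in listed CpGs, with a median of 20.5 distinct positions per tile against 69 in high tiles. Its single positions were themselves intermediate: of 345 listed in 3 or more bulls, 201 (58.3%) had medians from 20% to 80%, 114 were under 20% and 30 over 80%.

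A second such region, chr29:48866001-48882000, spanned 16000 bp and 8 tiles with levels from 46.5% to 76.8%. Its mean in a bull ran from 48.0% (L03) to 69.3% (L02), with a median of 58.3%, between flanks of 87.4% and 91.7%. Of its 127 positions in 3 or more bulls, 102 (80.3%) were from 20% to 80%. Runs of 8 or more tiles under 80% were no special feature of the window: they held 2.89% of its tiles, against 7.50% on the rest of chr29 and 3.75% in the genome.

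**Figure D4:**
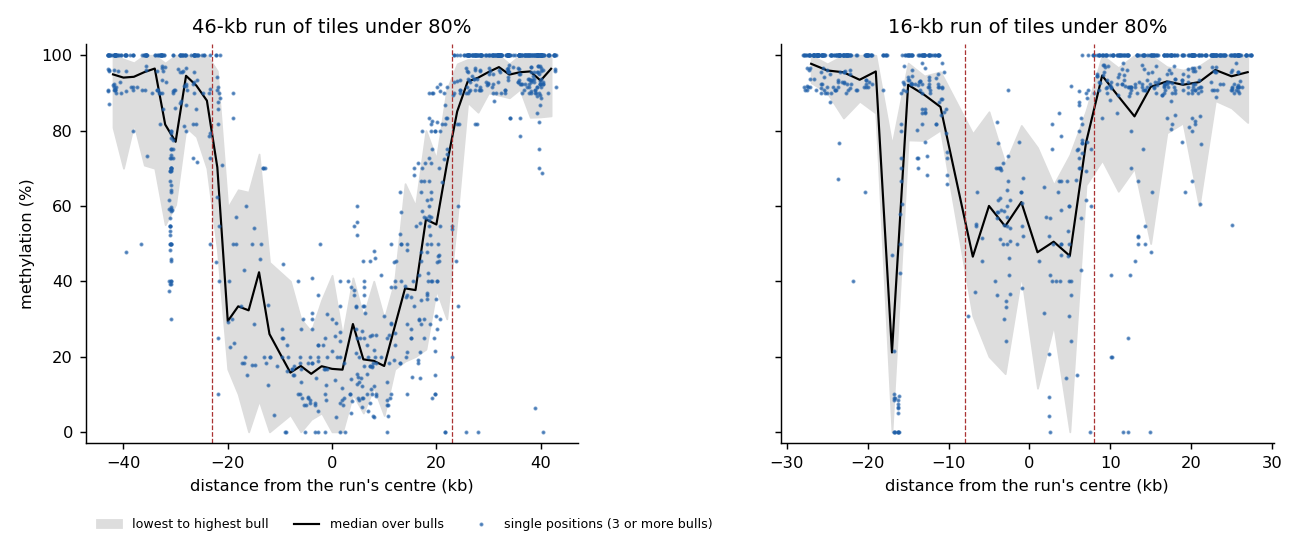
Methylation (%) against distance (kb) from the centre of the 46-kb region (left) and the 16-kb region (right), with red dashed lines at their edges: median tile level over bulls (black line, drawn across tiles outside the 830), lowest to highest bull (grey), and medians of single positions listed in 3 or more bulls (blue points). Left, levels drop to 15.4% in the middle and return over both edges; right, they stay between 46.5% and 76.8%, and the narrow dip to the left of it is a tile at 21.1% with an unmethylated stretch.

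The mean level over each broad region was also compared between high and low groups, in numbers of bulls too small for the test to pass its threshold in most traits: 3 against 3 bulls cannot give a p under 0.1. In the 46-kb region the high-GL bulls had 32.9% (H03), 45.4% (H09), 46.4% (L03) and 38.1% (L05), and the low-GL bulls 28.01% (H02), 27.8% (H05), 37.2% (L01) and 35.6% (L07). The groups overlapped, and their means of 40.7% ± 6.35 (SD, n = 4) and 32.1% ± 4.94 (SD, n = 4) differed by 8.54 points (two-sided exact permutation test over bulls, p = 0.114, adjusted p = 0.571 over 10 tests, the 2 regions in 5 traits; the smallest p that 4 against 4 bulls allow is 0.0286). For SCR the 3 high bulls had 31.4% (H01), 28.01% (H02) and 32.9% (H03), all below the low bulls at 37.2% (L01), 51.2% (L02) and 46.4% (L03). That difference of -14.1 points had an exact permutation p of 0.1, which is the smallest 3 against 3 bulls can give, and an adjusted p of 0.571. The SCR means came from 22, 53 and 139 positions in the high bulls and 133, 43 and 49 in the low bulls. In the longest run of low tiles inside the region, the high bulls listed 6, 8 and 39 of these and the low bulls 14, 3 and 11. In the second run these were 2, 17 and 24 against 26, 3 and 7. The part of such unequal listing in the difference was not tested. The other 8 tests had exact p from 0.4 to 1. These p-values do not show that the groups were alike. Of tests of single tiles by logistic regression (below), 1 of 30 in the 46-kb region and 2 of 15 in the 16-kb region were called over the 5 traits. Of the genome's intermediate tiles 16.4% (SCE) to 31.1% (CCR) were called, and of its low tiles 10% (SCE) to 16.9% (CCR). The 46-kb region holds both kinds, with 9 low tiles among its 22. The difference was not tested.

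Among the 43 intermediate tiles outside these regions, positions were mixed: of 1245 listed in 3 or more bulls, 293 were under 20%, 416 from 20% to 80% and 536 over 80%. Intermediate tiles listed in all 18 bulls numbered 15. The 4 with the smallest spread were chr29:49012001-49014000 at 78.2% (interquartile range 9.74 points), chr29:48920001-48922000 at 78.8% (10.97), chr29:49648001-49650000 at 56.4% (12.2) and chr29:49644001-49646000 at 38.1% (12.3). The last 2 belong to the 46-kb region, and in the first of these 32 of 35 positions were from 20% to 80%, with none lower. In chr29:48920001-48922000, 23 of 46 positions were from 20% to 80% and 23 higher. The full range over bulls was wide in all 4 tiles. In the order above it ran from 40.5% (H01, 3 positions) to 100% (H05, 1 position) and from 63.7% (L04) to 96.7% (H01). In the last 2 it ran from 22.0% (H01) to 80% (H09) and from 18.8% (H01) to 65.9% (L03).

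The tiles that varied most, among 73 with 3 or more positions in every bull, were chr29:48980001-48982000 (interquartile range 26.4 points, bulls from 33.3% in L08 to 97.2% in L03), chr29:48794001-48796000 (19.6 points, 66.8% in H06 to 98.6% in H01), chr29:49200001-49202000 (18.98 points, 17.8% in H04 to 87.1% in H06) and chr29:50052001-50054000 (18.2 points, 52.0% in L02 to 94.4% in H02). At single positions listed in 9 or more bulls within them, the median interquartile range was 13.9, 8.39, 7.50 and 9.09 points. These tiles were picked for a wide tile range, and over the 512 tiles with such a position the order was the other way, with a median range of 3.76 points for tiles and 7.69 for positions. The third holds part of the unmethylated stretch at chr29:49201892-49202085. Bulls that listed CpGs in it had between 0% and 3.12% there, and all 18 had between 59.7% and 87.1% in the remainder of the tile.

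The comparisons ask whether sperm methylation differs between bulls labelled high and low for a trait. A differentially methylated region (DMR) was a tile with q under 0.01 and a difference over 5 points by logistic regression of methylated against unmethylated reads, fitted over all tiles of the genome listed in every bull of the comparison. This test treats reads, not bulls, as the units, and the variation from bull to bull does not enter it. In GL 29 of 474 tiles were called (6.12%), 16 lower and 13 higher in the high bulls, beside 8.75% called in the genome (3.75% lower, 4.99% higher). In SCE 31 of 289 were called (10.7%), 12 lower and 19 higher, beside 6.18% (3.54% and 2.64%). In BDE 34 of 428 were called (7.94%), 20 lower and 14 higher, beside 7.57% (2.86% and 4.71%). In CCR 56 of 517 were called (10.8%), 30 lower and 26 higher, beside 11.1% (8.48% and 2.58%). In SCR, fitted with listed read counts, 21 of 284 were called (7.39%), 10 lower and 11 higher, beside 8.68% (4.54% and 4.13%). With 10 reads per position, as in the other traits, SCR had 11 calls, 6 lower and 5 higher, with no genome share at hand. The shares in the window lay on both sides of the genome's. The split by direction depended on single bulls and on where tiles began, and no genome shares by direction are at hand for these alternatives. In CCR there were 44 lower and 14 higher calls without H08, together 11.2% of the window's tiles, beside 16.9% of the genome's. There were 21 and 25 without H06 (8.60%, beside 8.53%) and 25 and 26 without L06 (9.66%, beside 8.79%). With tiles shifted by 1000 bp there were 19 and 29. In GL there were 20 and 23 without L03, 18 and 19 without L01, 14 and 19 without L07, and 22 and 7 with shifted tiles. In SCE there were 11 and 10 without H03, 14 and 13 without L09, 17 and 32 without H01, and 8 of each with shifted tiles. In BDE there were 16 and 17 without L02. Bull H01, which listed the fewest positions, had the largest effect on the count in both of its comparisons: without H01 more tiles could be tested, and the calls were 49 of 547 tiles in SCE (8.96%, beside 6.80% of the genome's) and 43 of 520 in SCR (8.27%, beside 9.38%).

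No call remained when the spread between bulls entered the test. The F test with overdispersion called 0 tiles in the window and 0% of the genome after Benjamini-Hochberg adjustment, and so did limma, in all 5 comparisons. A count of 0 from these tests does not show that the groups were alike. In the window the smallest limma adjusted p over the 5 comparisons was 0.980, in GL, without file format in the model, and 0.958, in BDE, with file format as a term in GL, SCE and BDE. Across the genome, without that term, it was 0.0678 in GL, 1.0 in SCE, 0.127 in BDE, 0.171 in CCR and 0.576 in SCR. Without adjustment, at p under 0.05 with differences larger than 5 points, limma picked 9, 11, 13, 15 and 6 tiles of the window for GL, SCE, BDE, CCR and SCR, beside 3.59%, 3.3%, 3.84%, 3.61% and 3.4% of the genome's tiles. The F test picked 5, 10, 14, 15 and 5, beside 3.47%, 2.46%, 2.81%, 2.89% and 2.72%. Tiles in which no high bull overlapped a low bull numbered 10, 33, 51, 56 and 20, beside 3.3%, 9.26%, 10.1%, 9.94% and 9.13% of the genome's tiles. Of these, 2, 8, 11, 14 and 6 were also called by logistic regression. In the genome 8177 of 19562 such tiles were also called in GL, 11630 of 49794 in SCE and 15583 of 55759 in BDE. In CCR these were 19720 of 54774 and in SCR 14922 of 50170. Taken over all tested tiles of the genome, the tiles of both kinds made up 1.38%, 2.16%, 2.83%, 3.58% and 2.72%.

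Tiles that overlapped an unmethylated stretch were called more often than the others, in the window and over the 29 autosomes. Of the 830 tiles, 36 overlapped an unmethylated stretch. In GL 7 of 18 tested tiles with a stretch were called (38.9%), against 22 of 456 without (4.82%). In SCE these were 5 of 11 and 26 of 278, in BDE 11 of 16 and 23 of 412, in CCR 11 of 22 and 45 of 495, and in SCR 5 of 10 and 16 of 274. Over the 29 autosomes, chr29 included, the called shares of tiles with a stretch were 32.7% in GL, 25.5% in SCE, 29.4% in BDE, 36.6% in CCR and 30.3% in SCR, beside 6.88%, 5.02%, 5.91%, 9.08% and 7.35% of those without. With 10 to 22 such tiles tested per trait in the window, the distance of its shares from those of the autosomes was not tested. By level, 8 of 29 intermediate tiles were called in GL (27.6%, beside 26% of the genome's intermediate tiles), 10 of 18 in SCE (55.6%, beside 16.4%), 14 of 27 in BDE (51.9%, beside 21.7%), 17 of 35 in CCR (48.6%, beside 31.1%) and 5 of 18 in SCR (27.8%, beside 22.3%). Of high tiles, 19 of 439 were called in GL (4.33%, beside 5.86%), 21 of 266 in SCE (7.89%, beside 4.50%), 18 of 396 in BDE (4.55%, beside 5.25%), 38 of 475 in CCR (8%, beside 7.78%) and 14 of 262 in SCR (5.34%, beside 6.50%). Of the 4 to 7 low tiles tested per trait, 2, 0, 2, 1 and 2 were called in GL, SCE, BDE, CCR and SCR, beside 14.2%, 10%, 12.2%, 16.9% and 12.5% of the genome's low tiles. The levels and stretches were taken from the same bulls, so these shares are descriptions.

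The difference was also taken at matched positions only, those that 1 or more bulls of both groups listed. Of the window's calls, 8 of 29 in GL, 10 of 31 in SCE, 14 of 34 in BDE, 24 of 56 in CCR and 6 of 21 in SCR kept their direction and a difference over 5 points there. These shares of 27.6%, 32.3%, 41.2%, 42.9% and 28.6% were below the genome's 44.0%, 53.9%, 50.9%, 62.0% and 51.3%, with no test of the difference. The Cochran-Mantel-Haenszel test, stratified by matched position, called 6, 3, 7, 17 and 2 tiles of the window, beside 2.15%, 1.31%, 1.59%, 4.37% and 1.16% of the genome's. It too takes reads as units, with 10 assumed per position, and leaves out the variation from bull to bull, so its q-values below carry the same limit.

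For GL, only 2 called tiles had groups that did not overlap. At chr29:49238001-49240000 the high-GL bulls had 85.0% (H03), 78.4% (H09), 91.9% (L03) and 93.9% (L05), and the low-GL bulls 95.5% (H02), 95.8% (H05), 96.5% (L01) and 98.04% (L07). In the fit the high bulls were lower by 8.72 points (q = 0.00611), with means of 87.3% ± 7.06 and 96.4% ± 1.15 (SD, n = 4 each), and lower by 7.08 points at 10 matched positions (stratified q = 0.0758, not called). The difference was -7.23 points within the bulls with known reads and -11.0 within the others. Its sign in such a split was fixed in advance, since the tile was chosen for groups that did not overlap. Adjusted p by limma was 0.980.

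At chr29:48694001-48696000 the high-GL bulls lay between 96.7% and 97.4%, and the low-GL bulls had 88.8% (H02), 95.8% (H05), 86.3% (L01) and 95.5% (L07). They were higher by 6.26 points than the low bulls (q = 5.36e-05; limma adjusted p = 0.980) and by 4.16 at 29 matched positions (stratified q = 0.0853, not called). The difference was 10.5 points among bulls with known reads and 1.41 among the others. Differences of this size concern the top of the scale, since all 8 bulls were over 86%.

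**Figure D5:**
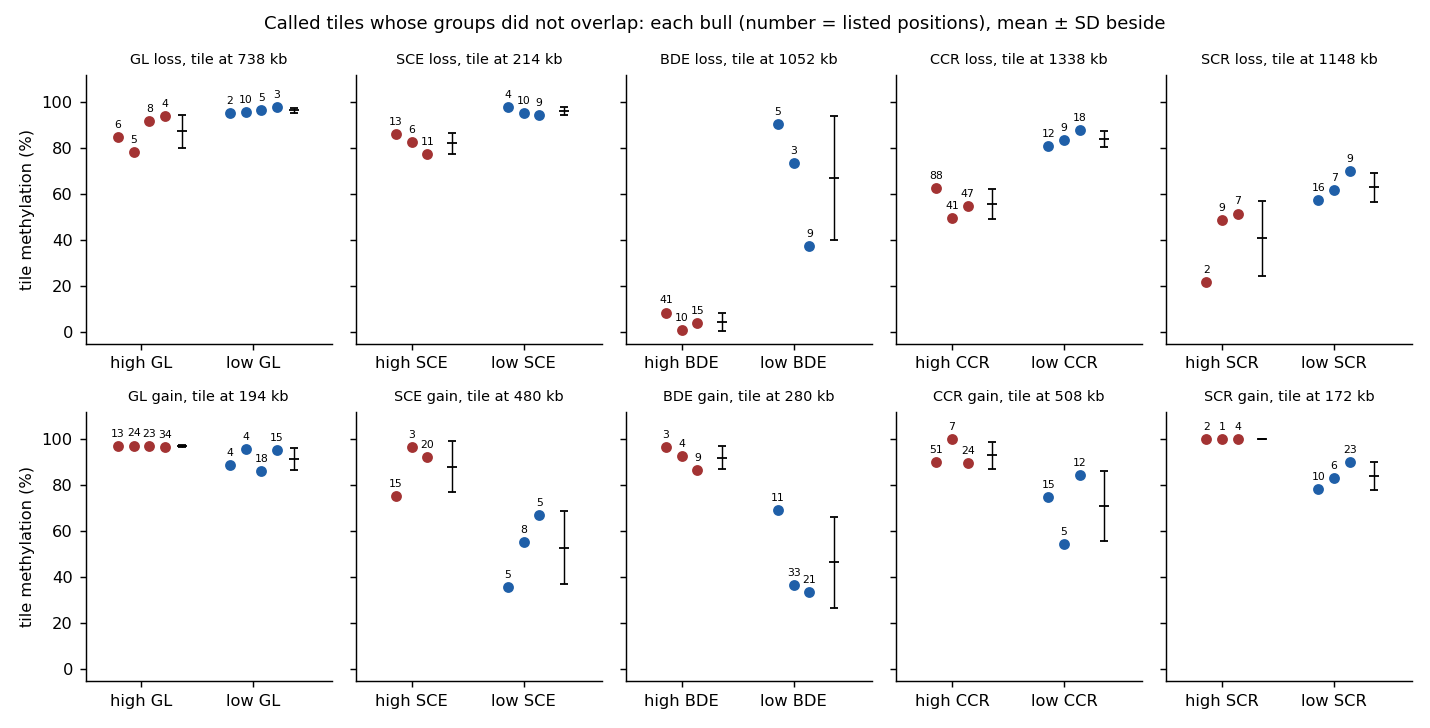
Tile methylation (%) of each high (red) and low (blue) bull, for GL, SCE, BDE, CCR and SCR from left to right. Of each trait's called tiles whose groups did not overlap, only the largest loss (above) and the largest gain (below) are drawn. The tile is named by its distance from the start of the window. The number by a point is the bull's listed positions, and the bar beside each group is the mean ± SD. The groups are farthest apart in the 2 BDE tiles, where bulls listed between 3 and 41 positions.

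Among called tiles whose groups did not overlap, the largest differences were in BDE, in tiles that hold an unmethylated stretch. At chr29:49552001-49554000, in the first part of the 2119-bp stretch, the high-BDE bulls had 8.51% (H02), 0.909% (L03) and 3.83% (L08), and the low-BDE bulls 90.3% (H05), 73.3% (H09) and 37.3% (L02). The fitted difference was -52.9 points (q = 8.44e-46; limma adjusted p = 1.0). The listed CpGs were not the same. H05 and H09 listed 5 and 3 positions, 0 of them inside the stretch, L02 listed 5 of 9 inside, while H02 listed 38 of 41 inside, L03 10 of 10 and L08 14 of 15. Inside the stretch, L02 had 6%, H02 1.66%, L03 0.909% and L08 1.43%. At the 6 matched positions the high bulls were higher by 1.07 points (stratified q = 0.786).

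At chr29:48780001-48782000 the high-BDE bulls had 96.7% (H02), 92.9% (L03) and 86.9% (L08), and the low-BDE bulls 69.4% (H05), 36.7% (H09) and 33.5% (L02). The fitted gain was 49.0 points (q = 6.42e-29; limma adjusted p = 1.0). None of the 3 high bulls listed a position inside the stretch at chr29:48781572-48781975, whereas H05 listed 3 of 11, H09 17 of 33 and L02 14 of 21 inside. Outside the stretch H05 had 87.9%, H09 68.8% and L02 97.1%. At 9 matched positions the difference turned to -4.67 points (stratified q = 0.481). The tile was also called in GL (-22.0 points), CCR (-14.9) and SCR (14.2), with overlapping groups, and in these the matched differences were -2.93, 5.83 and -1.52 points.

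In CCR the largest loss and the largest gain with groups that did not overlap kept their direction at matched positions. At chr29:49838001-49840000 the high-CCR bulls had 62.4% (H08), 49.7% (H09) and 54.8% (L06), and the low-CCR bulls 81.0% (H06), 83.5% (L08) and 87.9% (L09). The fitted difference was -27.4 points (q = 5.31e-24; limma adjusted p = 1.0), and it was -8.54 at 31 matched positions (stratified q = 0.00138). The high bulls listed 25 of 88, 17 of 41 and 13 of 47 positions inside the 1534-bp stretch, against 2 of 12 in H06 and 0 in L08 and L09. Outside the stretch the groups overlapped, with the high bulls at 86.7% (H08), 83.0% (H09) and 75.5% (L06) and the low bulls at 87.9% (L09), 83.5% (L08) and 91.8% (H06). At chr29:49008001-49010000 the high-CCR bulls had 90.1% (H08), 100% (H09) and 89.6% (L06), and the low-CCR bulls 74.8% (H06), 54.5% (L08) and 84.4% (L09). Here the difference was 15.6 points (q = 2.10e-09; limma adjusted p = 1.0), and 10.3 at 24 matched positions (stratified q = 0.000107).

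In SCE the bulls at chr29:48714001-48716000 had 86.3% (H03), 82.5% (H07) and 77.4% (L02) in the high group and 97.9% (H01), 95.3% (H06) and 94.6% (L09) in the low group. High bulls were lower by 13.2 points (q = 4.55e-05; limma adjusted p = 1.0) and by 4.84 at 13 matched positions (stratified q = 0.216, not called). At chr29:48980001-48982000, the first of the 4 variable tiles above, they had 75.5%, 96.7% and 92.4%, and the low bulls 35.8%, 55.5% and 67.3%. The fitted gain was 32.7 points (q = 8.70e-14; limma adjusted p = 1.0), and the difference at 8 matched positions was -2.94 (stratified q = 0.683). This tile was also called in GL (25.2 points), CCR (20.6) and SCR (-19.2), where the matched differences were 0.0391, -7.66 and 2.28 points.

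In SCR the tile at chr29:49648001-49650000, on the rising edge of the 46-kb region, had 22.0% (H01), 48.9% (H02) and 51.6% (H03) in the high group and 57.3% (L01), 62.0% (L02) and 69.8% (L03) in the low group. In the fit they were lower by 14.9 points than the low bulls (q = 0.00553; limma adjusted p = 0.999) and by 6.13 at 9 matched positions (stratified q = 0.664, not called). At chr29:48672001-48674000 the high bulls were all at 100%, from 2, 1 and 4 positions, and the low bulls at 78.4%, 83.3% and 90.3%, from 10, 6 and 23. The fitted difference was 13.8 points (q = 9.54e-05; limma adjusted p = 0.999), and it was 0 at 4 matched positions (stratified q = 0.856).

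The largest fitted difference of any call, chosen after values were seen, was -68.1 points in BDE at chr29:49346001-49348000, where the groups overlapped: the high bulls had 6.35% (H02), 25.9% (L03) and 90.9% (L08), and the low bulls 0% (H05), 98.7% (H09) and 98.3% (L02). The fit weights bulls by their positions, of which they listed between 1 and 13 each. The tile holds part of the unmethylated stretch at chr29:49347493-49348051. H02 listed 13 of 13 positions inside it, H05 2 of 2 and L03 1 of 8. Inside it L08 listed 0 of 1, H09 0 of 7 and L02 0 of 6. Outside the stretch L03 had 28.2%. The plain means over bulls were 41.1% ± 44.3 and 65.7% ± 56.9 (SD, n = 3 each), and the difference at the 2 matched positions was 14.3.

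A total of 118 of the 607 tiles tested in any comparison were called in at least 1 (19.4%, beside 20.2% of the genome's tiles), and 4 in 4 of the 5 traits (0.659%, beside 0.450% of the genome's in 4 or more). They were chr29:48780001-48782000 and chr29:48980001-48982000, above, and chr29:48794001-48796000 and chr29:48906001-48908000. At chr29:48794001-48796000 the fitted differences were 9.34 points in SCE, -14.5 in BDE, 13.4 in CCR and -10.9 in SCR, and the matched differences 1.02, -2.94, 4.11 and 2.69. At chr29:48906001-48908000 they were -23.6, -15.7, -18.7 and 21.9 points, and 12.9, 0.185, -6.16 and -0.690 at matched positions. That tile holds the 573-bp stretch, where all 13 bulls that listed it were under 3.58%, and outside the stretch bulls had 20% to 97.4%. In none of the 4 tiles did the sign stay the same over the comparisons that called it. Some bulls are high for a trait and low for another, such as H01 and L02 in SCE and SCR and L08 and H09 in BDE and CCR. The signs are therefore not independent of each other.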

How the data were processed

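Sperm DNA of 18 bulls was sequenced after bisulfite conversion. Per the labels and the study's methods, the authors checked reads with FastQC 0.11.2, trimmed them with Trim Galore 0.4.0, mapped them to UMD 3.1 with Bowtie2 and extracted methylation with Bismark 0.14.5, keeping positions with at least 10 reads. The authors deposited a percent of methylated reads per position for every bull and, for 6 bulls, also the read count per position. The design assumed read counts, but 12 bulls list the percent only, so each position counted as 10 reads in GL, SCE, BDE and CCR, and the listed counts were used in SCR. That number sets the weight of a position and the size of q.

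Positions were summed in tiles of 2000 bp. Logistic regression was followed by q-values from a simplified SLIM method over all tested tiles. An F test with overdispersion, limma 3.58.1 in R 4.3.3 on log2-transformed ratios of methylated over unmethylated reads, each with 1 added, and a Cochran-Mantel-Haenszel test at matched positions were run beside it with Python 3.11.15, NumPy 2.4.6 and SciPy 1.17.1. The matched test used 10 reads per position in all traits. The tests were also run on simulated data. For limma and the F test these had the GL groups, few changed tiles and spread from read sampling only. After adjustment both left nearly all changed tiles uncalled, which does not give their power in these data. No pair of bulls had identical values (at most 42.8% of shared positions in the window were equal).

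The tiles and lists were chosen with earlier results of these data known. Tiles were named by a rule: runs of 2 or more low tiles, the 3 isolated low tiles with most positions, the 4 intermediate tiles with the smallest and the 4 tiles with the largest interquartile range, called tiles whose groups did not overlap (up to 3 losses and 3 gains in GL, the largest of each in the other traits), and tiles called in 4 or 5 traits. The fourth isolated tile, the stretches, the broad regions and the fits within bulls of 1 file format were chosen after values were seen. The labels give GL, SCE and BDE groups with bulls of both formats (with and without listed reads); all SCR bulls list reads and no CCR bull does. No genome sequence was used, so no sequence is printed.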

Additional observations from a re-analysis of the deposited data

Results flagged for a closer look

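Among 75 groups of 4 GL bulls (the high and the low group at each named region or tile), 7 held a bull whose gap to the nearest of the others was, as a share of the group's range, over Dixon's 95% critical value. Chance gives about 1 in 20 for independent groups that were not selected, a rate that cannot be applied here, since the groups hold the same 8 bulls, some regions overlap and some tiles were named for a wide spread. In the 16-kb region H02 had 65.2% against 49.6% to 50.5% in the other low-GL bulls. In the 20 kb after the 46-kb region L05 had 95.9% against 92.6% to 93.0% in the other high-GL bulls. At chr29:48920001-48922000 H09 had 67.5% against 83.2% to 84.1% in the other high-GL bulls. At chr29:49552001-49554000 H09, which listed 3 positions and 0 inside the unmethylated stretch, had 73.3% against 0.909% to 8.75%. At chr29:49838001-49840000 L01, with 10 of its 16 positions inside the stretch, had 31.5% against 81.5% to 90.6% in the other low-GL bulls. At chr29:48714001-48716000 L01 had 88.5% against 97.5% to 99.0%, and at chr29:49008001-49010000 H05 had 56.4% against 81.9% to 83.7%, both among the low-GL bulls. What sets these bulls apart was not tested.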

How the results depend on the processing

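The median tile level stayed between 95.3% and 95.8% under 6 alternatives. The window held 8 low and 469 high tiles of 512 from positions listed in 9 or more bulls only, 3 and 214 of 232 among tiles listed in all 18 bulls, and 4 low tiles under a limit of 10%; these alternatives keep fewer tiles or a stricter limit. The counts of calls below are for GL, SCE, BDE, CCR and SCR in this order, from 29, 31, 34, 56 and 21, where a trait's count moved by over 1.5 times. The F test and limma called 0 in each, and limma with file format as a term 0 in GL, SCE and BDE. The stratified test called 6, 3, 7, 17 and 2. Over 10 points there were 14 in GL, 17 in SCE, 28 in CCR and 12 in SCR. With 3 or more positions per tile and bull there were 13 in GL, 18 in SCE, 16 in BDE and 10 in SCR. Shifted tiles gave 16 in SCE. SCR had 11 with 10 reads per position and 0 of 5 tiles at 15 reads. Within the bulls without listed reads GL had 58 of 601 tiles. Both SCE splits by file format leave 1 arm with a single bull, so their counts are not given. No genome share is at hand for the GL count within a format, or for the counts over 10 points, with 3 or more positions or with shifted tiles. Leaving out each bull in turn gave 25 to 43 in GL, 21 to 49 in SCE, 29 to 41 in BDE, 46 to 59 in CCR and 16 to 43 in SCR, with the highest SCE and SCR values without H01. At the lowest counts the window's shares were 5.24%, 7.22%, 6.50%, 8.60% and 5.63%, beside 7.84%, 6.20%, 6.93%, 8.53% and 9.26% of the genome's. At the highest counts they were 8.63%, 8.96%, 8.35%, 11.1% and 8.27%, beside 8.58%, 6.80%, 7.79%, 11.1% and 9.38%. Counts do not say which tiles. Except as given, the cause was not tested. No paired analysis was possible because the labels tie no bulls together: each is a separate animal, and the replicate numbers only name samples. Depth is unknown in 12 bulls, and a share of 36.7% of positions seen in a single bull limits every comparison of tiles.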
